A study of Homo sapiens with 8 samples.

Results

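Chromosome 19 held 1022 of the 15412 anti-PML::RARA Cut&Run peaks of zinc-induced U937-PR9 cells, a share of 6.63%. They were taken by position alone, as every peak that the authors placed on chromosome 19 of the hg19 genome, and no height, width or label was used to choose them. PML::RARA is the fusion of the PML protein with retinoic acid receptor alpha (RARA) that drives acute promyelocytic leukemia, and U937-PR9 is an established human monocytic line with a PML::RARA transgene under a zinc-inducible promoter. Cells received ZnSO4 at 100 μM or water for 5 h, and nuclei of both conditions were profiled with an anti-PML-RARA and an anti-RARA antibody in 2 replicates each, which makes 8 libraries. In Cut&Run, an antibody directs a nuclease to the protein it binds, and the released DNA is sequenced. The values below come from 1 list, made with the anti-PML-RARA antibody in cells given zinc, while the anti-RARA antibody and the cells given water were not analysed here. The list has 1 value per peak, so a spread between replicates cannot be given, and the depth is unknown. Whether a height comes from 1 replicate, a mean or pooled reads is not given in the sources used here. No cells without the transgene are among the groups, so an effect of zinc alone and one of the fusion cannot be told apart.

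Retinoic acid receptors bind pairs of the half-site AGGTCA as dimers, recruit corepressors without ligand and activate transcription with it, and the fusion protein keeps the DNA-binding part of RARA. In myeloid cells, factors of the ETS, RUNX, AP-1 and C/EBP families act at many of the same regulatory elements. Chromosome 19 is known as the most gene-dense human chromosome, with high GC content, large clusters of zinc finger genes that evolved by tandem duplication, and several loci of blood cells, among them the neutrophil elastase locus, CEBPA and the leukocyte receptor complex.

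The sequences shown first are those around the motif nearest the apex of the highest peaks and of the highest labelled peak in the densest stretches of the chromosome. The apex is the midpoint of the interval of largest signal, a labelled peak is one that the authors gave a gene symbol because its apex overlapped a promoter, and the height of a peak is its largest signal. Capitals mark the motif, each line reads 5′ to 3′ on the strand named, and positions are on hg19. In 4 of the 6 highest labelled peaks (the fifth place is shared) the nearest motif was the GC box GGGCGG, which factors of the SP and KLF families bind. Counted anywhere within 100 bp of the apex, GGGCGG lay in 62.5% of all labelled peaks of chromosome 19. A count of 4 of 6 thus does not set the highest peaks apart.
NDUFA11, chr19:5904692-5904717, plus strand: ccaaactcagGGGCGGagtttcatga
KHSRP, chr19:6424977-6425002, plus strand: gaggggcagtGGGCGGgaggctcaga
TOMM40, chr19:45394153-45394178, plus strand: cctcgccgcgGGGCGGaatcaaaaga
RRAS, chr19:50143631-50143656, plus strand: ctcagcgggaGGGCGGtctgtgggcg
The HDGFL2 peak, as high as that of RRAS, had the E-box CACGTG.
HDGFL2, chr19:4472108-4472133, plus strand: ctgtcccctgCACGTGgtcctgatcg
The highest peak of the chromosome, at TIMM44, and the unlabelled peak in intron 1 of RFX2 had a single nuclear receptor half-site, AGGTCA, as the nearest motif. Its centre lay 54 bp from the apex at TIMM44 and 5 bp from it in RFX2.
TIMM44, chr19:8008707-8008732, minus strand: gccctatcagAGGTCAagctctctag
RFX2 intron 1, chr19:6062414-6062439, plus strand: catgagctgaAGGTCAcaaagcagga
Other high unlabelled peaks carried the core of a RUNX site (TGTGGT), of an ETS site (GGAAGT) and of an AP-1 site (TGANTCA).
HNRNPM intron 15, chr19:8552413-8552438, plus strand: gctaaggtctTGTGGTttcctggcac
DNM2 exon 2, chr19:10870406-10870431, minus strand: ccgcggggaaGGAAGTccctgtgagg
Near ARHGEF18, chr19:7402668-7402694, plus strand: ccctcttttaTGATTCAtaaccagtgc
ARHGEF18 exon 1, chr19:7413977-7414002, plus strand: ttgagaaagaGGAAGTcgaggtgcta
In the densest 1 Mb bins, the highest labelled peaks outside those above were the following.
ATP8B3, chr19:1812841-1812866, plus strand: gccagtgcagGGGCGGagcctgaaag
SGTA, chr19:2783378-2783403, plus strand: gggcgtggaaGGAAGTgacgcaacgt
MPV17L2, chr19:18303738-18303763, plus strand: gcacagaaagGGGCGGggaaacaaga
The high peaks in CIC and VAV1 and those of PGLS and ABHD8 held none of the 6 motifs within 100 bp of their apex. None of these motifs contains another. The centres of the motifs shown lay from 3 bp (SGTA) to 76 bp (HNRNPM) from the apex. A match of letters is a description of the sequence and not a bound site.

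Chromosome 19 was the most densely occupied of the 22 autosomes. It held 17.3 peaks per Mb (exact Poisson 95% interval 16.2 to 18.4), compared with 4.98 per Mb over the 14065 peaks of the other 21 autosomes, a ratio of 3.47. Among those 21, the density ran from 2.17 per Mb on chromosome 4 to 13 per Mb on chromosome 17, so that chromosome 19 stood at 1.33 times the next autosome. Intervals of densities and shares cover the counting of peaks only, and neighbouring peaks are not independent. Peaks covered 1.99% of the bases of chromosome 19, compared with 0.523% of the other autosomes and 1.48% of chromosome 17. The median distance between neighbouring peaks was 18.1 kb, below the 22.6 kb of chromosome 17.

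The order changed when peaks were counted per gene. Chromosome 19 carries 1480 protein-coding genes, or 25 per Mb, 3.98 times the 6.29 per Mb of the other autosomes. Per 100 protein-coding genes it held 69.1 peaks, which placed it 18th of 22, between 54.6 on chromosome 4 and 117 on chromosome 15, and the other autosomes together held 79.3. The difference lay in the peaks without a label. Labelled peaks stood at 37.8 per 100 genes on chromosome 19 and 36.3 on the other autosomes, whereas unlabelled peaks stood at 31.2 and 43.0, the latter placing chromosome 19 at 21st of 22. The peaks of chromosome 19 were thus at the top of the autosomes per base and in the lower part per gene.

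**Figure D1:**
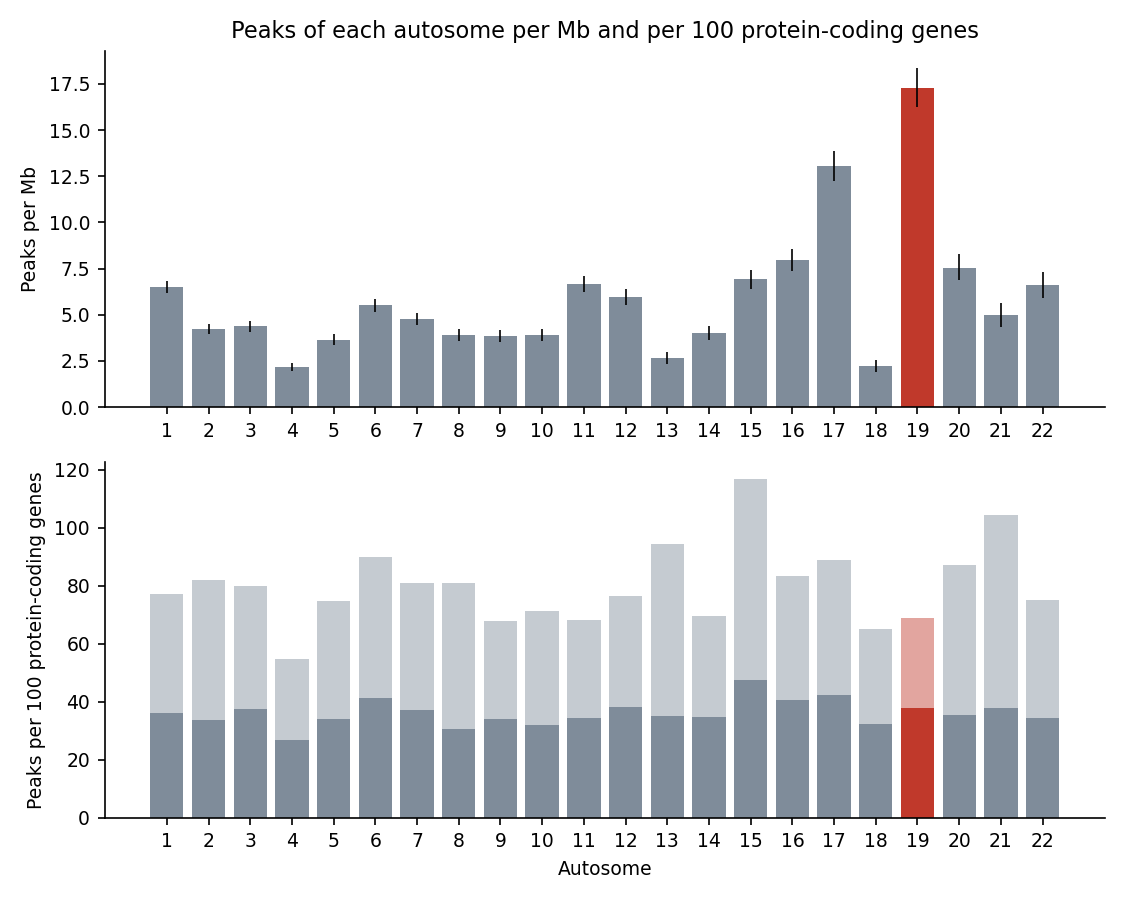
The upper panel plots peaks per Mb for each autosome with exact Poisson 95% intervals as error bars, and the lower panel plots peaks per 100 protein-coding genes, with labelled peaks in the dark part of each bar and unlabelled peaks in the pale part. Chromosome 19, in red, is highest at 17.3 per Mb in the upper panel and stands at 69.1 per 100 genes in the lower, where chromosome 15 is highest at 117.

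Of the 1022 peaks, 560 carried a promoter label, a share of 54.8% (Wilson 95% interval 51.7 to 57.8%), against 46.5% of the whole list. On the other autosomes together the share was 45.8% (45 to 46.6%), 9.01 percentage points lower. None of the 21 other autosomes reached the share of chromosome 19, since theirs ran from 36.4% on chromosome 21 to 50.5% on chromosome 9. The 560 peaks named 507 different genes, of which 454 had 1 peak, 53 had 2 and 0 had 3 or more. Where the label could be matched to an annotated gene, in 557 peaks, the apex lay a median of 128 bp from a start site of that gene. In 4 cases it lay over 3 kb away and next to another gene. The SPPL2B-labelled peak of height 50 had its apex 16 bp from a start site of JSRP1, the MIR330-labelled peak of height 47 lay 2 bp from one of EML2, and the labels ZNF763 and ICAM5 sat 73 bp from ZNF700 and 66 bp from ICAM4.

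Placed by their apexes on the GENCODE annotation, 41.4% of the chromosome 19 peaks lay in introns, 35.7% were intergenic, 12.4% lay in untranslated regions, 7.44% in other exons and 3.03% in coding exons. The apex was within 1 kb of any annotated start site in 64.8% of the peaks, compared with 54.1% on the other autosomes. Labelled peaks lay a median of 99 bp from a start site, compared with 72 bp elsewhere, while unlabelled peaks were nearer than elsewhere. Of the 462 unlabelled peaks, 132 lay within 1 kb of a start site, or 28.6% compared with 19.5% on the other autosomes, and their median distance was 2754.5 bp compared with 5573.5 bp.

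Peak height on chromosome 19 ranged from 15 to 82, with a median of 27 (quartiles 21 and 36). On the other autosomes together the median was 25 (quartiles 19 and 33), and the medians of single autosomes ran from 22 to 26. The mean log2 height was 0.10 above that of the other autosomes, a 1.07-fold difference, when the same difference for each of the 21 others ran from -0.11 to 0.06 with an SD of 0.056. Chromosome 19 was therefore highest by this measure, by a margin below the SD of 0.52 among its own peaks. The labelled peaks had a median height of 30, compared with 26 elsewhere and 28 at most on another autosome. The unlabelled peaks had a median of 25 compared with 23. By mean log2 height they stood 0.058 above the rest, where chromosomes 15 and 21 stood 0.10 and 0.062 above. Because high peaks tend to be wide (Spearman's rho 0.470 over the peaks of chromosome 19, which share libraries and caller), heights were also compared within 10 classes of width, in which chromosome 19 was higher in 9, by 0.07 on the log2 scale on average. A height of 43, the 90th percentile of the list, was reached by 147 of the 1022 peaks, or 14.4%, against 10.1% of the whole list and 14.7% on chromosome 15.

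The narrowest peak measured 114 bp and the widest 6835 bp, and the median width was 912.5 bp, compared with 824 bp on the other autosomes and 907.5 bp on chromosome 17. The mean log2 width was 0.13 above the other autosomes, a 1.10-fold difference that chromosome 11 exceeded at 0.15. Within the labelled peaks the median width was 1109.5 bp, compared with 1112 bp on the other autosomes. Within the unlabelled peaks it was 669.5 bp compared with 630 bp. By mean log2 width, chromosome 19 stood 0.05 above the other autosomes in labelled peaks and 0.09 above in unlabelled ones. The part of the labelled share in the width difference was not tested. A width of 3225 bp, the 99th percentile of the list, was reached by 16 peaks, or 1.57%, against 1.01% of the whole list and 2.17% on chromosome 17.

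**Figure D2:**
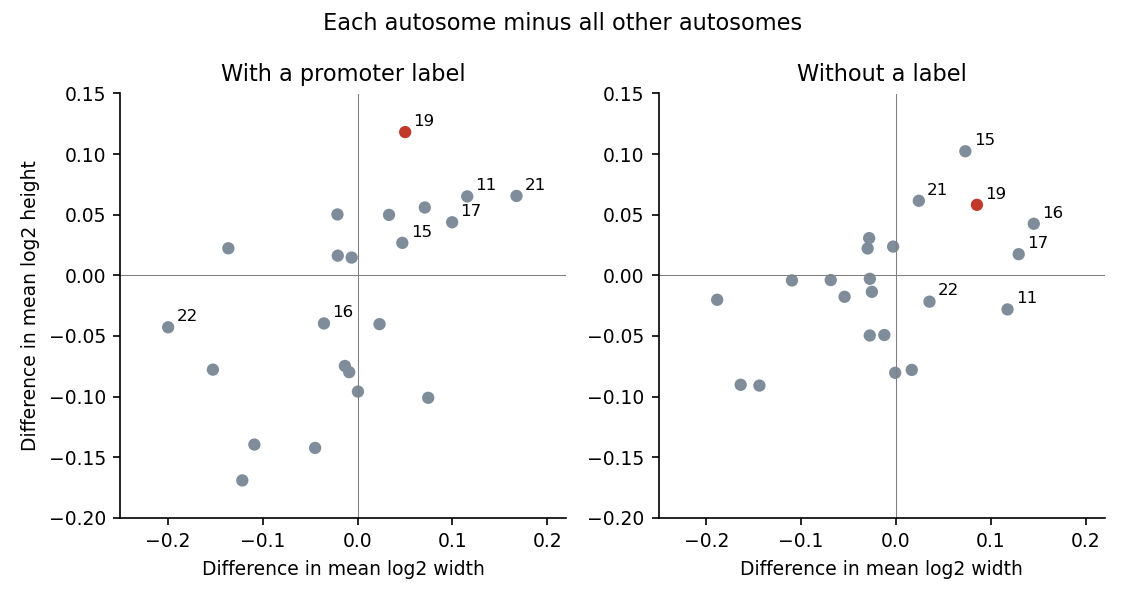
Each point is an autosome, placed by its mean log2 width (horizontal axis) and mean log2 height (vertical axis) minus those of all other autosomes, for labelled peaks on the left and unlabelled peaks on the right, with chromosome 19 in red. For labelled peaks chromosome 19 is highest on the height axis, at 0.12, and near the middle of the right-hand side in width, at 0.05. For unlabelled peaks chromosomes 15 and 21 are higher, at 0.10 and 0.062 compared with 0.058.

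The 6 highest labelled peaks, with a tie at the lowest height, included those of genes of mitochondrial import, respiration, RNA binding and small GTPase signalling. TIMM44, a subunit of the motor that pulls proteins through the inner mitochondrial membrane, had the highest at 82 (8007960 to 8009438), when the highest of the whole list was 87. NDUFA11, a subunit of respiratory complex I (5903213 to 5905465), KHSRP, a splicing and mRNA decay factor (6424696 to 6426750), and TOMM40, the channel of the outer mitochondrial membrane (45393414 to 45394712), each had a peak of height 73. The RRAS peak reached 64 (50142707 to 50144614), and RRAS encodes a small GTPase related to RAS. A labelled peak of HDGFL2 also reached 64 (4471233 to 4473070). All 6 apexes lay within 235 bp of an annotated start site.

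The 7 highest unlabelled peaks reached 60 to 69, with 3 tied at 60, compared with 64 to 82 for the 6 highest labelled ones. The highest, at 69, lay in intron 15 of the canonical transcript of HNRNPM, a splicing factor (8551886 to 8553313), although 315 bp from the start of another HNRNPM transcript. A peak of 67 had its apex in exon 2 of DNM2, which encodes dynamin 2, a GTPase of membrane fission (10869878 to 10870738). A peak of 65 lay in intron 1 of RFX2, a transcription factor of ciliogenesis (6062201 to 6063316). Its apex was 188 bp from a start site of another annotated gene and 5127 bp from the nearest coding start site. An intergenic peak of 64 lay 11150 bp from the nearest coding start site, that of ARHGEF18 (7401923 to 7403073). The peaks of 60 lay within CIC, a transcriptional repressor, 268 bp from one of its start sites (42771826 to 42773684), in intron 1 of VAV1, a guanine nucleotide exchange factor of blood cells (6800903 to 6802107), and in exon 1 of ARHGEF18 (7413440 to 7414436). The apex in ARHGEF18 was 128 bp from one of its start sites.

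Among the widest peaks were immediate early genes and regulators of transcription. The MIDN peak extended over 6835 bp (1247387 to 1254221) and reached 46, and MIDN encodes midnolin, which takes unstable nuclear proteins to the proteasome. JUNB, an AP-1 subunit, had a peak of 5858 bp that reached 37 (12899243 to 12905100), and DBP, a bZIP factor of the circadian clock, one of 5534 bp that reached 55 (49137494 to 49143027). The peak labelled STX10 spanned 5280 bp and reached 40, with the apex 76 bp from a start site of IER2, an immediate early gene (13260247 to 13265526). The fifth, of 5245 bp and height 33, had no label and lay in intron 1 of KLF16 (1853314 to 1858558). The narrowest of these 5 was wider than 99.9% of the list, but their heights of 33 to 55 were below those of the highest peaks.

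Along the chromosome, the peaks were unevenly spread. The short arm held 581 peaks, or 23.8 per Mb of sequence without gaps, and the long arm 441, or 14.1 per Mb. The short arm has fewer protein-coding genes, 642 compared with 838, and per 100 genes it held 90.5 peaks compared with 52.6 on the long arm. A labelled peak was found for 39.6% of the genes of the short arm and 27.4% of those of the long arm. The share of peaks with a label went the other way, at 51.1% on the short arm (Wilson 95% interval 47.1 to 55.2%) and 59.6% on the long arm (55 to 64.1%). All 581 short-arm peaks lay in its first 20 Mb. Median heights of the arms were 27 and 26, and median widths were 928 and 902 bp.

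Counted in 60 bins of 1 Mb, chromosome 19 had a median of 14 peaks per bin, compared with 2 over the 2837 bins of the other autosomes. In 8 bins there was no peak, from 20000001 to 28000000, a stretch that spans the centromere gap and includes 2 bins without any sequence. These 8 bins hold 36 protein-coding genes, of which 33 are zinc finger genes. At least 25 peaks were found in 22 bins of chromosome 19 and in 87 bins of all other autosomes. Over the 43 bins with 5 or more peaks, the median height ran from 19.5 to 34, the median width from 382 to 1504.5 bp and the labelled share from 14.3 to 100%.

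**Figure D3:**
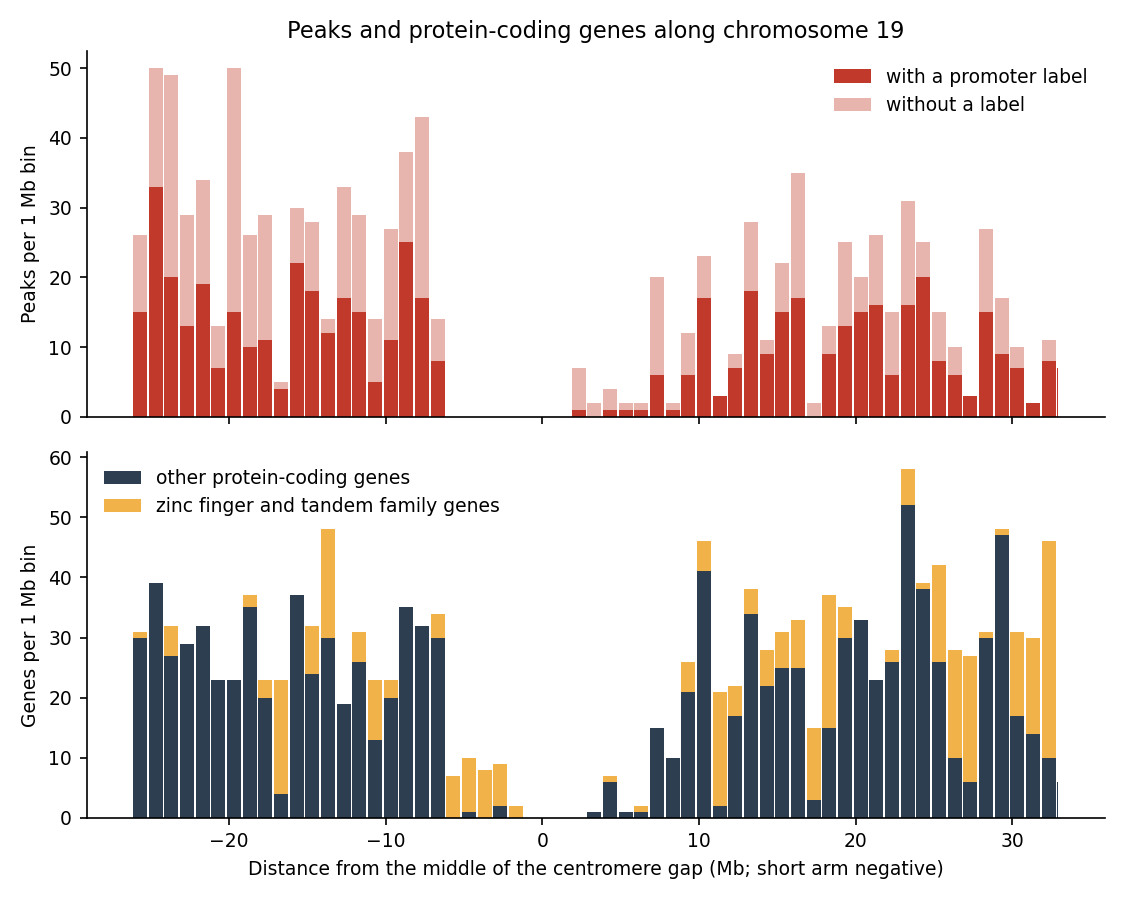
The upper panel plots peaks per 1 Mb bin of chromosome 19, labelled peaks in dark red and unlabelled peaks in pale red, and the lower panel plots protein-coding genes in the same bins, with zinc finger and tandem family genes in yellow, both against distance from the middle of the centromere gap in Mb. The tallest bars, at 50, 50 and 49 peaks, stand on the short arm, 8 bins around the centromere hold 0 peaks, and bins made mostly of yellow have few peaks.

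The 5 densest bins, with 38 to 50 peaks each, all lay on the short arm and held 230 peaks, or 22.5% of the chromosome's. Across the other autosomes, 12 bins held 38 or more and the densest held 53. The labelled share in the 5 bins was 47.8% (Wilson 95% interval 41.5 to 54.3%), compared with 56.8% (53.3 to 60.2%) in the remaining 792 peaks of chromosome 19. The bins were of different make-up, since labelled peaks made up most of the peaks in 2 of them and unlabelled peaks in the other 3. A labelled peak was found for 32.7% of the protein-coding genes of chromosome 19 and 30.9% of all autosomal ones. Bins were chosen for their number of peaks, so a high share of genes in them follows in part from that choice.

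The bin from 1000001 to 2000000 held 50 peaks, 33 with a label (66%). Its median height was 31, its median width of 1504.5 bp was the largest of the bins with 5 or more peaks, and 27 of its 39 protein-coding genes had a labelled peak. The highest labelled peaks belonged to ATP8B3, a phospholipid flippase (height 58, 1811111 to 1813370), ARHGAP45, a GTPase-activating protein of blood cells (56, 1066441 to 1069835), and, at equal height, SCAMP4, a secretory carrier membrane protein (53, 1904282 to 1905954), and GPX4, a peroxidase of lipid peroxides (53, 1101349 to 1102267). The ARHGAP45 and GPX4 apexes lay 1831 and 2085 bp from the nearest start site. Another GPX4-labelled peak, with its apex 66 bp from a start site, reached 47. MIDN and KLF16, named above for their wide peaks, lie in the same bin. The bin from 17000001 to 18000000 was alike in its labelled share, with 25 of 38 peaks labelled (65.8%), a median height of 32.5 and 20 of 35 genes with a labelled peak. Its highest were PGLS, an enzyme of the pentose phosphate pathway (53, 17622089 to 17623652), ABHD8 (53, 17415876 to 17417352, with MRPL34 as the nearest gene) and NIBAN3 (50, 17633777 to 17634742).

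The bin from 6000001 to 7000000 also held 50 peaks, but only 15 of them had a label (30%) and 31 of the apexes lay in introns. Its median width was 683 bp, and 13 of its 23 genes had a labelled peak. The unlabelled peaks had a median height of 27 and reached 65, and the labelled ones a median of 36, led by KHSRP (73), the AlkB homologue ALKBH7 (58, 6372194 to 6375244) and the receptor-like gene GPR108 (47, 6736460 to 6740766). In the bin from 2000001 to 3000000, 20 of 49 peaks had a label (40.8%) and 29 of the apexes lay in introns. There the highest labelled peaks were those of SGTA, a cochaperone (51, 2782669 to 2783974), the SPPL2B-labelled peak at JSRP1 (50, 2268970 to 2272194) and AP3D1, a subunit of an adaptor complex of vesicle transport (48, 2150499 to 2152315), and an unlabelled peak reached 59. In the bin from 18000001 to 19000000, 17 of 43 peaks had a label (39.5%), with a median height of 25, and the highest were MPV17L2, a mitochondrial protein (63, 18303431 to 18304603), ELL, an elongation factor of RNA polymerase II (53, 18632435 to 18633557), and RAB3A, a GTPase of vesicle release (43, 18314246 to 18315877).

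RFX2 and GNG7, chosen after their values were seen, each held several peaks in one of these bins. RFX2 held 12 apexes within its 206 kb, of which 2 had its label, and 12 of the 19222 autosomal protein-coding genes held at least 12, with 15 the most in any gene. In order of position, the 12 peaks with an apex in RFX2 had heights of 43, 65, 37, 39, 33, 54, 51, 17, 43, 23, 27 and 57. The 2 labelled ones were that of 43 from 6108687 to 6111087 and that of 23, so the unlabelled peaks of 65, 57, 54 and 51 were higher than both. That of 57 also lies in intron 6 of ACSBG2. GNG7, a gamma subunit of heterotrimeric G proteins, held 9 apexes in its introns, none of them with a label. The peak with its label, from 2702403 to 2703167 with a height of 20, crossed the start of the gene. Its apex lay just outside. The heights of the 9 in order of position were 38, 29, 18, 17, 35, 52, 32, 47 and 19, and 4 of them lay between 2616718 and 2622084 in intron 2. Among autosomal genes 28 held at least 9.

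Peaks per bin rose with the number of protein-coding genes, with Spearman's rho of 0.60 over the 56 bins with at least 0.5 Mb of sequence. This was below the range of the other autosomes, 0.63 to 0.85. When zinc finger and tandem family genes were left out of the gene count, a choice made after seeing the data, rho was 0.79 on chromosome 19. With GC content it was 0.854, above the range of the other autosomes, 0.496 to 0.845. Over the 42 such bins with at least 5 peaks, rho of the number of peaks was -0.32 with the labelled share, 0.32 with the mean log2 height and 0.06 with the mean log2 width. These are descriptions, since the bins share libraries, and gene number and GC content go together.

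By gene, 484 of the 1480 protein-coding genes of chromosome 19 had a labelled peak, 32.7% (Wilson 95% interval 30.4 to 35.1%), against 30.9% of all 19222 autosomal protein-coding genes. Lists of genes of this chromosome fell on both sides of that share. Blood transcription factors were at the upper end, with a labelled peak at 18 of 23 (78.3%, interval 58.1 to 90.3%). LYL1, a basic helix-loop-helix factor of blood stem cells, had 2 labelled peaks of height 51 and 44, and the AP-1 subunits FOSB and JUNB had peaks of 39 and 37. CEBPA, which directs granulocyte differentiation, had a peak of 17, higher than 7.36% of the list, and its relative CEBPG had 2, of 31 and 21. No label was found for KLF1, the erythroid Krüppel-like factor, MEF2B, NFIX, SPIB, an ETS factor of B cells, or USF2. A peak of height 48 labelled BORCS8 lay 608 bp from a MEF2B start site.

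Chromatin regulators and corepressors had a labelled peak at 13 of 20 genes (65%, interval 43.3 to 81.9%). The highest were those of GATAD2A, a subunit of the NuRD complex (48), the arginine methyltransferase PRMT1 (48) and the deacetylase SIRT2 (47). Genes without a label included CHAF1A, SAFB, SIN3B, TLE2, TLE5 and UHRF1, yet with an apex within 1 kb of an own start site counted in place of a label the list stood at 16 of 20 (80%), where the share by this measure was 40.1% of all autosomal protein-coding genes and 43.9% of those of chromosome 19. At CHAF1A, a histone chaperone subunit, the peak labelled SH3GL1 reached 51, with an apex 186 bp from a CHAF1A start site. At UHRF1, a reader of hemimethylated DNA, an unlabelled peak of 24 lay 111 bp from a start site.

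At the neutrophil granule locus near the end of the short arm, 3 of 5 genes had a labelled peak (60%, interval 23.1 to 88.2%). That interval includes the 30.9% of all autosomal protein-coding genes. AZU1, which encodes azurocidin, had a peak of 37 (827397 to 828471), CFD, complement factor D, one of 28 (858582 to 860211), and ELANE, neutrophil elastase, one of 19 (850305 to 851270). PRTN3 (proteinase 3), which lies between AZU1 and ELANE, and GZMM had no label and no peak over the gene.

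Leukocyte receptors and ligands had a labelled peak at 21 of 65 genes (32.3%, interval 22.2 to 44.4%), near the background share of 30.9%. The highest were NKG7, a granule protein of cytotoxic lymphocytes (49), ICAM1, an adhesion molecule (39), and the inhibitory receptor LAIR1 (39). TYROBP, the signalling adaptor of myeloid receptors, and TNFSF14 had peaks of 38. Within the receptor families a label was found at 0 of 7 KIR genes, which encode natural killer cell receptors, 2 of 11 SIGLEC genes, 3 of 10 LILR genes and 0 of 3 formyl peptide receptor genes, numbers too small to set apart from the background share. The 3 labelled LILR genes, LILRA2, LILRB2 and LILRA4, had heights of 21, 18 and 16, all below the chromosome's median of 27. CD33 had neither a label nor a peak over the gene.

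At ribosomal protein genes, counts by label and by position differed. A label was found at 8 of 13 (61.5%, interval 35.5 to 82.3%), with RPL18 (46) and RPS19 (45) among the highest, whereas all 13 had an apex within 1 kb of an own start site, a measure met by 43.9% of the genes of the chromosome. The peak at RPL13A (height 33) carried the name SNORD32A, a small nucleolar RNA gene within the host. The peaks near RPS28 and RPL28 were labelled NDUFA7 (22) and TMEM238 (19).

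Zinc finger genes, taken by the prefixes ZNF, ZFP and ZSCAN, make up 261 of the genes of chromosome 19. Many encode KRAB repressors that bind DNA through arrays of zinc fingers. Only 47 of them had a labelled peak (18%, interval 13.8 to 23.1%), while of the 288 on the other autosomes 103 had one (35.8%, interval 30.4 to 41.5%). Their labelled peaks had a median height of 23, compared with 30 over all genes of the chromosome, and the highest were ZNF558 (48), ZNF564 (44) and ZNF446 (40). With an apex within 1 kb counted in place of a label, 61 of 261 had a peak (23.4%), compared with 125 of the 288 on the other autosomes (43.4%) and 43.9% of all genes of chromosome 19. Near-identical family members can share reads. The study's methods give default settings for most steps and name no filter on multiply aligned reads, and the part of such reads in these counts was not tested. Tandem families with restricted expression, which comprise kallikreins, pregnancy-specific glycoproteins, CEACAM genes, olfactory receptors, 2 cytochrome P450 groups, galectins and chorionic gonadotropin genes, had a label at 3 of 81 genes (3.70%) and at 6 of 414 on the other autosomes (1.45%). The 3 were CEACAM21, CEACAM4 and CEACAM5, with heights of 18 to 27.

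Together both kinds of family make up 342 genes, 23.1% of the protein-coding genes of chromosome 19 compared with 3.96% on the other autosomes. Outside them, 434 of 1138 genes of chromosome 19 had a labelled peak (38.1%, interval 35.4 to 41.0%), compared with 5340 of 17040 (31.3%, interval 30.6 to 32.0%). Outside them the chromosome also held more peaks per 100 genes than the other autosomes, 89.8 compared with 82.5, so the order seen over all genes was turned, with all peaks counted in both. In the 14 bins where these families make up at least 50% of the protein-coding genes there were 51 peaks for 265 genes, or 19.2 per 100 genes, with a median of 2 peaks per bin. In the other 42 bins with protein-coding genes there were 964 peaks for 1215 genes, or 79.3 per 100, with a median of 25.

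**Figure D4:**
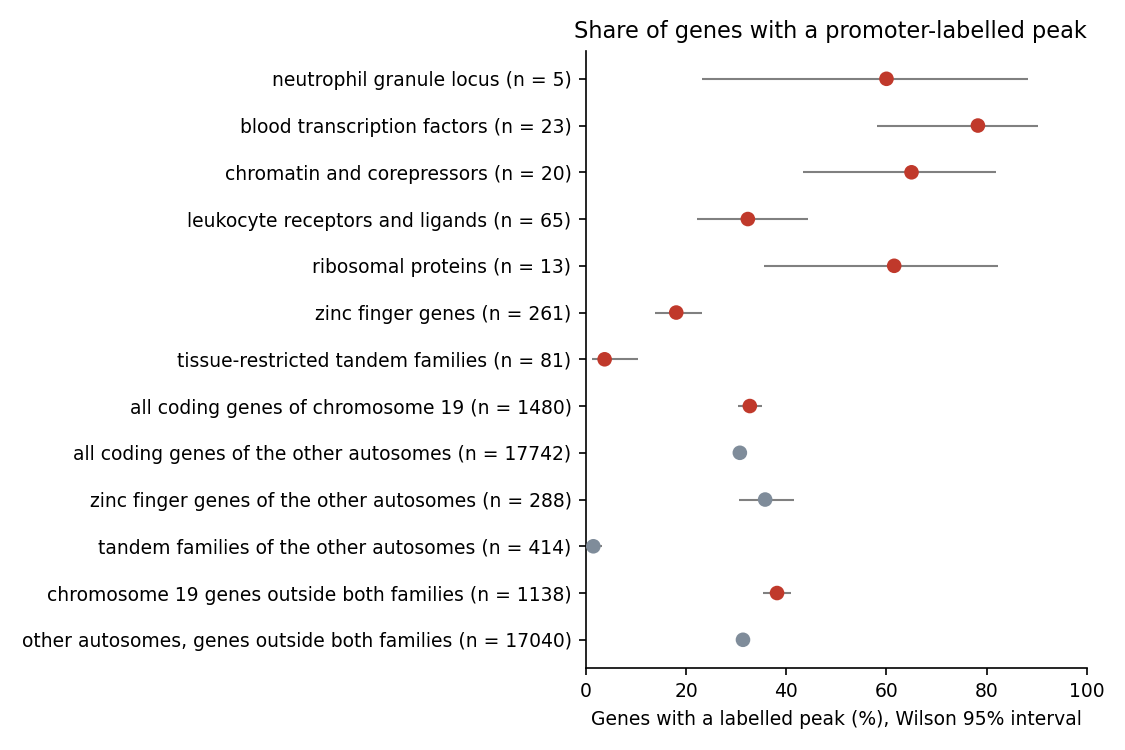
Each point is the share of genes of a list with a promoter-labelled peak, with its Wilson 95% interval as a line, in red for lists on chromosome 19 and in grey for genes of the other autosomes. Blood transcription factors stand highest at 78.3%, zinc finger genes of chromosome 19 stand at 18% compared with 35.8% on the other autosomes, and both sets of tandem families are below 4%.

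The bases around the apexes were richer in GC on chromosome 19 than elsewhere. Within 100 bp of the apex the median GC content was 61.5% on chromosome 19 and 59% on the other autosomes, where single autosomes ran from 56 to 61%. At 2 kb from the apex it was 52% and 47%. The difference was in the unlabelled peaks, with 59% compared with 54.5%, while labelled peaks had 64% compared with 65%. Motifs were searched on both strands in the same windows, which extend 100 bp to either side. GGGCGG lay in 48.4% of the chromosome 19 windows (interval 45.4 to 51.5%), in 37.6% of those on the other autosomes, at most 44.2% on one of them, and in 13.1% of windows 2 kb away on chromosome 19 and 6.64% of those on the others. In labelled peaks the shares were 62.5% and 61.5%, and in unlabelled peaks 31.4% and 17.4%.

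The ETS core GGAAGT was found in 29.1% of the windows of chromosome 19 and 30.6% of the others, compared with 7.05% and 10.7% of windows 2 kb away, and the E-box CACGTG in 6.75% and 6.57%, compared with 3.23% and 2.72%. The AP-1 motif TGANTCA was less frequent than on the other autosomes together, 9.10% (interval 7.49 to 11%) compared with 12.7%. Single other autosomes ran from 7.23 to 16.4%, a range that includes chromosome 19. In labelled peaks the shares were 3.93% and 4.81%, and in unlabelled peaks 15.4% and 19.4%. The windows 2 kb away held it in 4.01% and 5.65%. The RUNX core TGTGGT was also less frequent, 15% (12.9 to 17.3%) compared with 19.6%, below the 17.2 to 23% of every other autosome. By label, TGTGGT stood at 7.86% on chromosome 19 and 9.13% on the others in labelled peaks, and at 23.6% and 28.5% in unlabelled ones. Windows 2 kb away held TGTGGT in 15.6% on chromosome 19 and 13.6% on the others. Beside labelled peaks of chromosome 19 this share was 12.9%, above that at their apexes, and beside unlabelled ones 18.8%, below it. The single half-site AGGTCA lay in 12.7% of the apex windows and 13.9% on the other autosomes, and in 20.3% and 16.3% of the windows 2 kb away. It was thus less frequent at the apexes than beside them, but mainly in labelled peaks. In these, the shares at the apexes and 2 kb away were 8.75% and 21.96% on chromosome 19 and 9.43% and 16.1% on the others. In unlabelled peaks AGGTCA stood at 17.5% and 18.2% on chromosome 19, and at 17.7% and 16.4% on the others, where the apexes held it more often. Direct repeats of the half-site, with A or G allowed as the first base and G or T as the third, were found in 2, 2 and 1 of the 1022 windows for spacings of 1, 2 and 5 bases. For a spacing of 2, the share was 0.196% at the apexes and 2.05% in the windows 2 kb away on chromosome 19, compared with 0.192% and 1.22% on the other autosomes. A spacing of 5 went the other way, with 0.098% and 0% on chromosome 19 and 0.164% and 0.036% on the other autosomes. With a spacing of 1 the shares at the apexes and 2 kb away were equal, 0.196% on chromosome 19 and 0.114% elsewhere. These shares rest on few windows. Unlabelled peaks held GGAAGT (36.1% compared with 23.2%), TGTGGT (23.6% compared with 7.86%) and TGANTCA (15.4% compared with 3.93%) more often than labelled ones within chromosome 19.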

How the data were processed

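Per the labels and the study's methods, the authors used Trimmomatic for trimming, Bowtie2 for alignment to hg19, SAMtools and Bedtools to remove duplicates and blacklisted reads, and SEACR with paired controls for peak calling, and kept peaks reproducible at an IDR below 0.05. The deposited list gives for each peak a position, a width, a total signal over the peak (treated as a score), a largest signal (height) and, where the apex overlaps a promoter of UCSC known genes, a gene symbol. What the 2 signal columns hold was taken from their values, since total signal was below height times width in all peaks, and their normalization is not given in the sources used here. Height was read from the column headed SEACR_score and total signal from that headed summit, the reverse of what these names imply. Depth per library is unknown.

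Peaks were binned by midpoint and set beside GENCODE release 44 on GRCh37, the same assembly. For 1 peak of chromosome 19 without an apex end, the apex start was used. Other autosomes served as the scale of every difference, and no test was made because the list has no replicate values. Wilson and exact Poisson intervals are at 95%. The functions were tested on simulated data. Gene lists, motifs and alternatives, like the choice of the chromosome, were made with earlier results of these data known. Named were the 5 highest labelled, 5 highest unlabelled and 5 widest peaks, the 3 highest labelled peaks of the 5 densest bins (ties in height included), and members of gene lists (the 3 highest and those without a label), a few of which are not reported here. Other list members with a value (such as CEBPA, CEBPG, TYROBP, TNFSF14 and the LILR genes), RFX2 and GNG7 were chosen after their values were seen. Sequences were read from GRCh37. The software was samtools 1.23.1, Python 3.11.15, pandas 2.3.3, scipy 1.17.1, numpy 2.4.6, matplotlib 3.10.9 and pysam 0.24.0.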

Additional observations from a re-analysis of the deposited data

How the results depend on the processing

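No paired analysis was possible because each peak has a single value, and leaving out a replicate was likewise not possible. Of 39 alternatives over 9 results, 24 moved the value by less than its interval or spread (for counts, by less than 1.5 times) and 15 by more. Among the former, genes with an apex within 1 kb numbered 649, compared with 484 with a label. With peaks under 1 kb apart merged the density was 15.7 per Mb. Restricted to peaks no lower than the median height, which shortens the list by construction, it was 10.0 per Mb, the ratio to the other autosomes 4.01, the labelled share 60.1% and the number of genes with a label 317. The ratio was 1.64 against chromosomes 17 and 22 and fell below 1, to 0.871, per protein-coding gene. Per protein-coding gene outside the zinc finger and tandem families, an alternative chosen after seeing the data, it was 1.09, and rho of peaks with such genes over bins, also added afterwards, was 0.79. Counting apexes within 1 kb of any start site gave 64.8%, and of a protein-coding one 60.5%, 12.4 points above the other autosomes. Total signal in place of height gave a log2 difference of 0.24. The log2 difference in width was 0.0502 in labelled peaks only and 0.0529 against chromosomes 17 and 22. The cause of these shifts was not tested. Intervals cover counting only, depth is unknown, and a missing peak does not show absence of binding.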
